A study of Mus musculus with 12 samples.

Results

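Described here are 8 genes whose islet transcripts stood lower in mice without BACE2: Aqp4, Tnfrsf11b, Ccl28, Tmprss2, Dcdc2a, Abcb10, Ush1c and Alox8. They were chosen by their measured levels, for lower values in the arrays without BACE2, and are 8 of the 17097 genes with a probe set of a single symbol. Their lower level without BACE2 is therefore how they were found, and it is given as a description with no test. They are covered by 17 probe sets, the groups of probes that each give a value per array, of the 45141 in the table. All 8 genes passed the filter on low values, a mean of at least 3.43 on the log2 scale, as did 12825 genes in all.

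The values are RNA levels in pancreatic islets of mice aged 12 weeks on standard chow, read on Affymetrix arrays, with 3 arrays for each of 4 genotypes. The genotypes were wild type (WT), hIAPP-Tg (called hIAPP below), which carries human islet amyloid polypeptide, BACE2-KO, and hIAPP-TgxBACE2-KO (called hIAPP/BACE2-KO), which has both changes. The strain entry is B6;129P2-Bace2tm1Bdes/J in all groups, wild type included. The labels do not name the promoter of the transgene or say whether islets of several mice were joined, so the spread between arrays may be partly technical. As a check of the tissue, the mean of 9 beta cell markers lay between 10.42 and 11.17 log2 in every array, and that of 13 acinar markers, which mark exocrine tissue around islets, between 8.53 and 10.56. In whole islets, fewer cells of a type and less RNA per cell cannot be told apart.

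BACE2 is an aspartyl protease of the beta cell membrane, where it cleaves surface proteins such as TMEM27. The 8 genes do not form one known pathway. Their products include a water channel (Aqp4), secreted proteins that act outside the cell (Tnfrsf11b, Ccl28), a surface protease (Tmprss2), scaffold and microtubule proteins of cell protrusions (Ush1c, Dcdc2a), a mitochondrial transporter (Abcb10) and a lipid-oxidising enzyme (Alox8).

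The start regions of 4 genes are shown because the text sets their array-to-array behaviour side by side. After genotype means were subtracted, Ccl28 and Tmprss2 correlated positively over the arrays, and Ush1c negatively with both. Dcdc2a was only weakly related to any of the 3. Each is the stretch from 250 bases before to 50 bases after the gene's start, 5′ to 3′ on the gene's strand, from RefSeq on GRCm38.p6. They are Ccl28 at chr13:119623569-119623868 (plus strand), Tmprss2 at chr16:97611146-97611445 (minus), Ush1c at chr7:46238441-46238740 (minus) and Dcdc2a at chr13:25055754-25056053 (plus). Capitals mark matches, on either strand, to any of 6 short motifs: the TATA box letters TATAAA, the CCAAT box letters CCAAT, the GC box letters GGGCGG, the cyclic AMP response element core TGACG, part of the HNF1 site as GTTAAT, and the forkhead letters TGTTTAC.
Ccl28: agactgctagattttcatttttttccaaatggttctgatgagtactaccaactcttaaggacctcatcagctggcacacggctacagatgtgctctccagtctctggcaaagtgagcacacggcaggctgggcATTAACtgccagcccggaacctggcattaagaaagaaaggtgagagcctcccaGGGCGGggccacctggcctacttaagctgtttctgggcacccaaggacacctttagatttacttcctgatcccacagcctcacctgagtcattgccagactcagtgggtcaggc
Tmprss2: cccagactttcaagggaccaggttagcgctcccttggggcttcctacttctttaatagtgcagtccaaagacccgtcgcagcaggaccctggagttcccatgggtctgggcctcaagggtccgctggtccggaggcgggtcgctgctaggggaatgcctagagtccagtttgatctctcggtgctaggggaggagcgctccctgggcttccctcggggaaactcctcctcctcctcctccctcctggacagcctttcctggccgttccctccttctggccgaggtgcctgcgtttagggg
Ush1c: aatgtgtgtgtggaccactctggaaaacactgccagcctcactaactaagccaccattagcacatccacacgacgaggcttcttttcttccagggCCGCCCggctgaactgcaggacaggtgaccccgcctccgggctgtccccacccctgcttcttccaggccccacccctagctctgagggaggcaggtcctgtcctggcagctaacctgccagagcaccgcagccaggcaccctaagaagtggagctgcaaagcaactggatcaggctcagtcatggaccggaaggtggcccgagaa
Dcdc2a: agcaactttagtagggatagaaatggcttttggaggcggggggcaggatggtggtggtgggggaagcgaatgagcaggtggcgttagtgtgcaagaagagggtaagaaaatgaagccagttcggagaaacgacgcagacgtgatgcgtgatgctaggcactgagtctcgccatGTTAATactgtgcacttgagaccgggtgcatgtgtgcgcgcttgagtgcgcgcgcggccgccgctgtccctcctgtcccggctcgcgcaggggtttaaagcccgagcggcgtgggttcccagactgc

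Start regions were read for 6 of the 8 genes. Entries on chromosome 18, where Aqp4 lies, were skipped, so Aqp4 was not read, and none was found for Tnfrsf11b. The GC box letters were found in 3 of the 6 (Ccl28, Alox8 and Ush1c), and in 35.7% of all 32851 start regions. GTTAAT was found in Ccl28 at position -117 from the start, on the opposite strand, and in Dcdc2a at position -77, against 7.1% of all start regions. The letters TATAAA (13.6% of all), CCAAT (37.4%), TGACG (20.8%) and TGTTTAC (3.65%) were in none of the 6. Tmprss2 and Abcb10 held none of the 6 motifs. These matches describe letters in a window and show no binding.

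**Figure D1:**
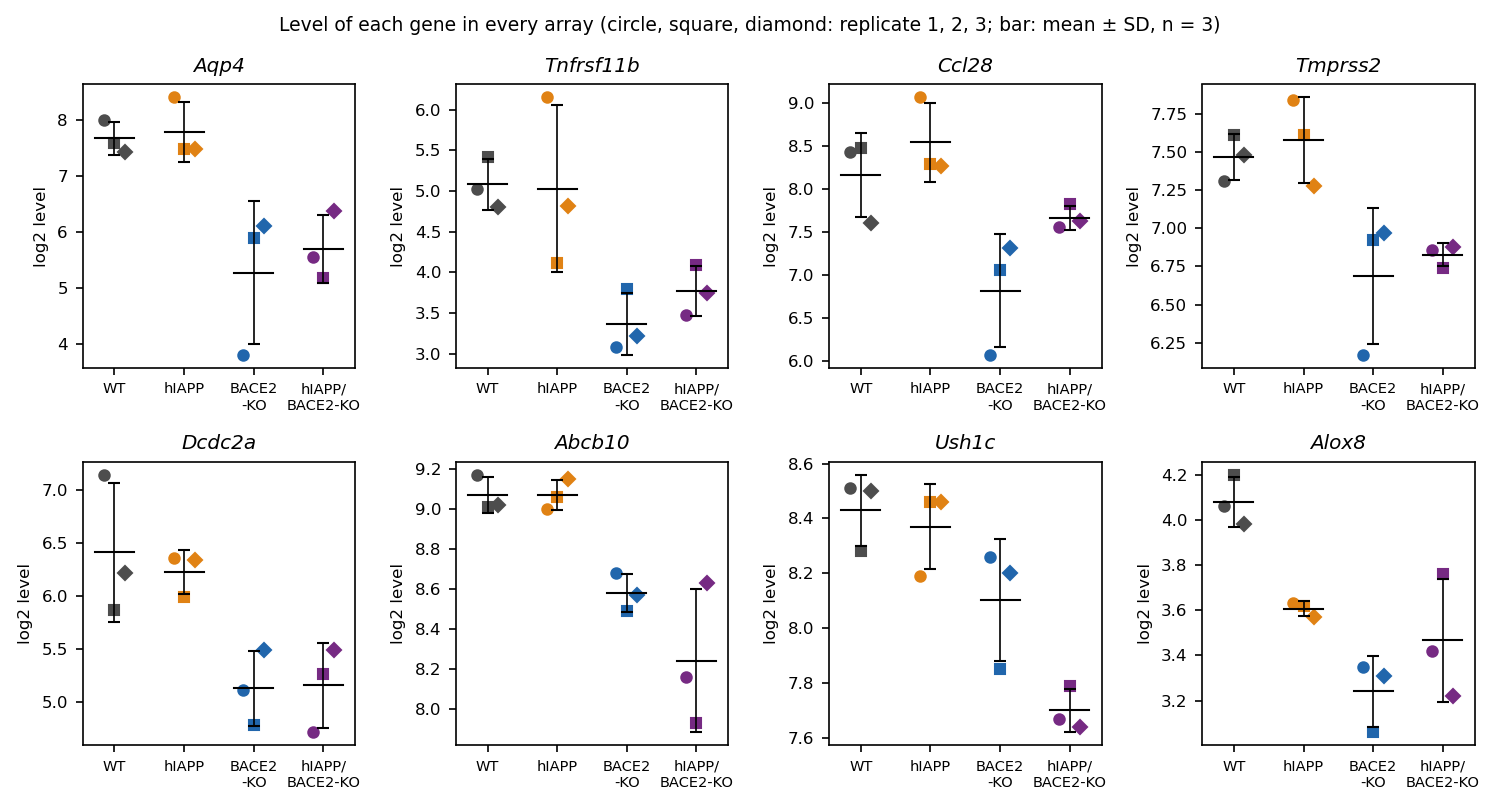
Log2 level of each of the 8 genes (vertical axes, different for each panel) in the 12 arrays, by genotype on the horizontal axis; symbols mark replicates 1, 2 and 3, and bars the mean ± SD of 3 arrays. BACE2-KO replicate 1 is the lowest point for Aqp4, Tnfrsf11b, Ccl28 and Tmprss2, and hIAPP replicate 1 the highest.

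Aqp4, which encodes a water channel best known from astrocytes, had the lowest averaged difference of any tested gene. Its log2 level was 8.0, 7.59 and 7.44 in the WT arrays and 8.41, 7.49 and 7.48 in hIAPP arrays. It was 3.80, 5.90 and 6.11 in BACE2-KO and 5.56, 5.18 and 6.37 in hIAPP/BACE2-KO arrays. All 6 arrays without BACE2 lay under all 6 with it, with 1.07 log2 between the nearest values, and the transgene groups overlapped on either side. Averaged over both transgene states, the level without BACE2 differed by -2.25 (SE 0.36), which is 4.75-fold lower. BACE2-KO replicate 1 stood far under the others of its group, and without it the averaged difference was -1.88. A further probe set showed a difference of -1.68, and the dimmest, near the filter level with a mean of 3.55, showed -0.46.

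The secreted factors were Tnfrsf11b and Ccl28. Tnfrsf11b encodes osteoprotegerin, a decoy receptor that binds the cytokine RANKL and keeps it from its receptor. Its level was 5.03, 5.42 and 4.80 in WT, 6.15, 4.12 and 4.82 in hIAPP, 3.08, 3.80 and 3.22 in BACE2-KO and 3.48, 4.09 and 3.74 in hIAPP/BACE2-KO arrays. The groups with and without BACE2 were apart by only 0.03, since hIAPP replicate 2 almost reached hIAPP/BACE2-KO replicate 2. The averaged difference of the fitted values was -1.49 (SE 0.28), and -1.21 without hIAPP replicate 1. On the other Tnfrsf11b probe set it was -0.93, and there the arrays with and without BACE2 overlapped. The BACE2-KO mean, 3.37, was below the filter (3.43). How well the array separates levels this low was not tested, so no exact size is read from this difference.

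Ccl28 encodes a chemokine of mucosal epithelia that binds the receptors CCR10 and CCR3. Its level was 8.42, 8.47 and 7.60 in WT, 9.06, 8.29 and 8.26 in hIAPP, 6.07, 7.06 and 7.31 in BACE2-KO and 7.55, 7.82 and 7.62 in hIAPP/BACE2-KO arrays. WT replicate 3 was lower than 2 of the hIAPP/BACE2-KO arrays, so the arrays with and without BACE2 overlapped. The averaged difference was -1.11 (SE 0.22), or 2.16-fold lower. It rests on 1 of 3 probe sets: the others, with means of 4.97 and 4.12, showed 0.03 and -0.09, and the mean of all 3 showed -0.39.

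Tmprss2 encodes a membrane-bound serine protease of epithelia that also primes the surface proteins of several viruses. Its level was 7.31, 7.61 and 7.48 in WT, 7.84, 7.61 and 7.28 in hIAPP, 6.17, 6.92 and 6.97 in BACE2-KO and 6.86, 6.74 and 6.88 in hIAPP/BACE2-KO arrays. The 6 arrays without BACE2 lay under the others, 0.31 apart at the nearest. The averaged difference was -0.77 (SE 0.14), or 1.7-fold lower, and -0.75 on a further probe set, whereas the dimmest, under the filter level with a mean of 3.34, showed 0.08.

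Dcdc2a encodes a doublecortin-domain protein that binds microtubules and sits at the primary cilium. Its only probe set gave 7.15, 5.87 and 6.22 in WT, 6.36, 5.99 and 6.34 in hIAPP, 5.11, 4.78 and 5.49 in BACE2-KO and 4.71, 5.26 and 5.49 in hIAPP/BACE2-KO arrays. The arrays with and without BACE2 were 0.38 apart, and the averaged difference was -1.18 (SE 0.22), or 2.27-fold lower. WT replicate 1 was the highest array by a wide margin.

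Abcb10 encodes a transporter of the inner mitochondrial membrane that is known for its part in heme metabolism. Its level was 9.17, 9.01 and 9.02 in WT, 9.0, 9.06 and 9.15 in hIAPP, 8.68, 8.49 and 8.57 in BACE2-KO and 8.16, 7.93 and 8.63 in hIAPP/BACE2-KO arrays. Arrays without BACE2 lay 0.32 or more under the others, and the averaged difference was -0.66 (SE 0.10), or 1.58-fold lower. A further probe set showed -0.77 and the dimmest -0.29.

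Ush1c encodes harmonin, a scaffold that anchors cadherins at the tips of hair cell stereocilia and of intestinal microvilli. Its only probe set gave 8.51, 8.28 and 8.50 in WT, 8.19, 8.46 and 8.46 in hIAPP, 8.26, 7.85 and 8.20 in BACE2-KO and 7.67, 7.79 and 7.64 in hIAPP/BACE2-KO arrays. Only the hIAPP/BACE2-KO arrays lay under all others, because BACE2-KO replicates 1 and 3 were higher than hIAPP replicate 1. The averaged difference was -0.50 (SE 0.09), or 1.41-fold lower.

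Alox8 encodes a lipoxygenase, an enzyme that adds oxygen to arachidonic acid. Its only probe set gave 4.06, 4.20 and 3.98 in WT, 3.63, 3.62 and 3.57 in hIAPP, 3.35, 3.06 and 3.31 in BACE2-KO and 3.42, 3.76 and 3.22 in hIAPP/BACE2-KO arrays. The WT arrays alone lay above all others, and hIAPP/BACE2-KO replicate 2 was higher than every hIAPP array. The averaged difference was -0.49 (SE 0.10), but the BACE2-KO mean of 3.24 is under the filter level, so no exact size is read, as for Tnfrsf11b.

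Across the 8 genes the averaged difference had a median of -0.94, against 0.02 over all 12825 genes tested, and 15 of the 17 probe sets had a lower value. All 8 were among the 65 genes called lower in this average, which is 0.507% of the genes tested. Calls were made with limma at a Benjamini-Hochberg adjusted p under 0.05. Calls in both directions made up 0.92% of genes. In 5 of the 8 genes, all 6 arrays without BACE2 lay under all 6 with it, as in 0.639% of all genes. That count takes the brightest probe set of each gene. Of all 17 probe sets, 8 were without overlap. These counts restate the choice of the genes, which came with no threshold. Among the 65, the differences ran from -2.25 for Aqp4 to -0.23 for Rab7, named here only as the end of that range.

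The comparisons of BACE2-KO with WT and of hIAPP/BACE2-KO with hIAPP share no array, and each gene's values stand side by side in the plot of both differences. All 8 genes were lower in both. In BACE2-KO arrays the difference ran from -2.41 for Aqp4 to -0.33 for Ush1c, and all 8 genes had every BACE2-KO array under every WT array, as did 6.34% of all genes. With the transgene it ran from -2.09 for Aqp4 to -0.14 for Alox8, and 7 of the 8 were without overlap, as were 4.57% of all genes. These counts, too, restate how the genes were chosen. Abcb10 (-0.49 and -0.83) and Ush1c (-0.33 and -0.67) had the larger differences with the transgene, the other 6 without it. Without BACE2-KO replicate 1, the difference of BACE2-KO from WT was -1.67 for Aqp4, -0.98 for Ccl28 and -0.52 for Tmprss2.

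**Figure D2:**
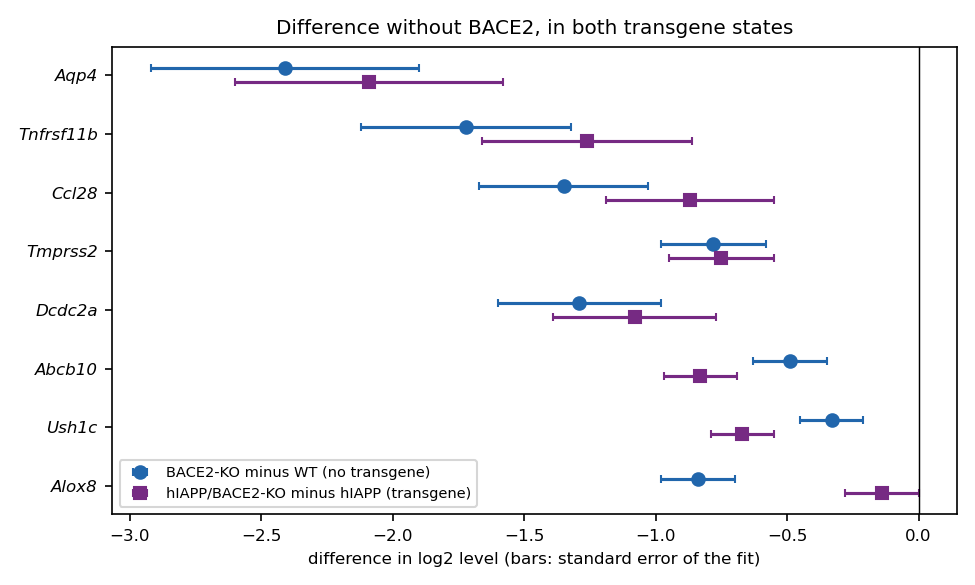
Difference in log2 level without BACE2 (horizontal axis) for each gene, in mice without the transgene (circles) and with it (squares); bars are the standard error of the fit. All 16 points lie under 0, from -2.41 for Aqp4 to -0.14 for Alox8.

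Whether the difference depended on the transgene was read from the interaction, the BACE2 difference with the transgene minus the one without it. It is independent of the averaged BACE2 difference. Which BACE2 comparison the genes were chosen on is not stated, and had it been that of BACE2-KO with WT alone, the interaction would share its values. No gene of the 8 was called (0.0078% of all genes were), and 1 had an unadjusted p under 0.05, as did 2.4% of all genes. That gene was Alox8, with an interaction of 0.70 (95% interval 0.27 to 1.13, adjusted p = 1), near the filter level. For Aqp4 the interval ran from -1.25 to 1.88 around 0.32 (-0.42 without BACE2-KO replicate 1) and for Tmprss2 from -0.58 to 0.64, so differences of these sizes between both states are not resolved. For Abcb10 it ran from -0.77 to 0.09 and for Ush1c from -0.72 to 0.03.

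The transgene itself was tested as a comparison that the choice of the genes did not use. Averaged over both BACE2 states, 4 of the 8 genes were higher and 4 lower with it, and their median difference was 0.02, against -0.02 over all genes. None was called by limma (0.0078% of all genes were), and 2 had an unadjusted p under 0.05, as did 7.59% of all genes. Ccl28 had a difference of 0.61 (SE 0.22, 95% interval 0.13 to 1.10, adjusted p = 0.644). Ush1c had a difference of -0.23 (SE 0.09, interval -0.42 to -0.04, adjusted p = 0.644). For Aqp4 the value was 0.27 (SE 0.36), with an interval from -0.51 to 1.06, and it was -0.09 without BACE2-KO replicate 1.

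The same limit holds for the transgene within each BACE2 state. Had the genes been chosen on BACE2-KO against WT alone, these comparisons would share the WT or the BACE2-KO arrays with that choice. In mice with BACE2, hIAPP against WT, none of the 8 was called (0.0156% of all genes were) and 1 had an unadjusted p under 0.05, as did 4.52% of all genes. Alox8 differed by -0.47 (SE 0.14, adjusted p = 0.95), and it was the only one of the 8 whose hIAPP and WT arrays did not overlap, as in 9.16% of all genes. In mice without BACE2, none was called (0% of all genes) and 3 had an unadjusted p under 0.05, against 4.44% of all genes. Ccl28 differed by 0.85 (SE 0.32, adjusted p = 0.962), Ush1c by -0.40 (SE 0.12, adjusted p = 0.962) and Abcb10 by -0.34 (SE 0.14, adjusted p = 0.962). The arrays of Ccl28 and Ush1c did not overlap in that comparison, 2 of the 8 genes, against 9.68% of all genes. The plot of transgene differences and interactions shows every interval.

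**Figure D3:**
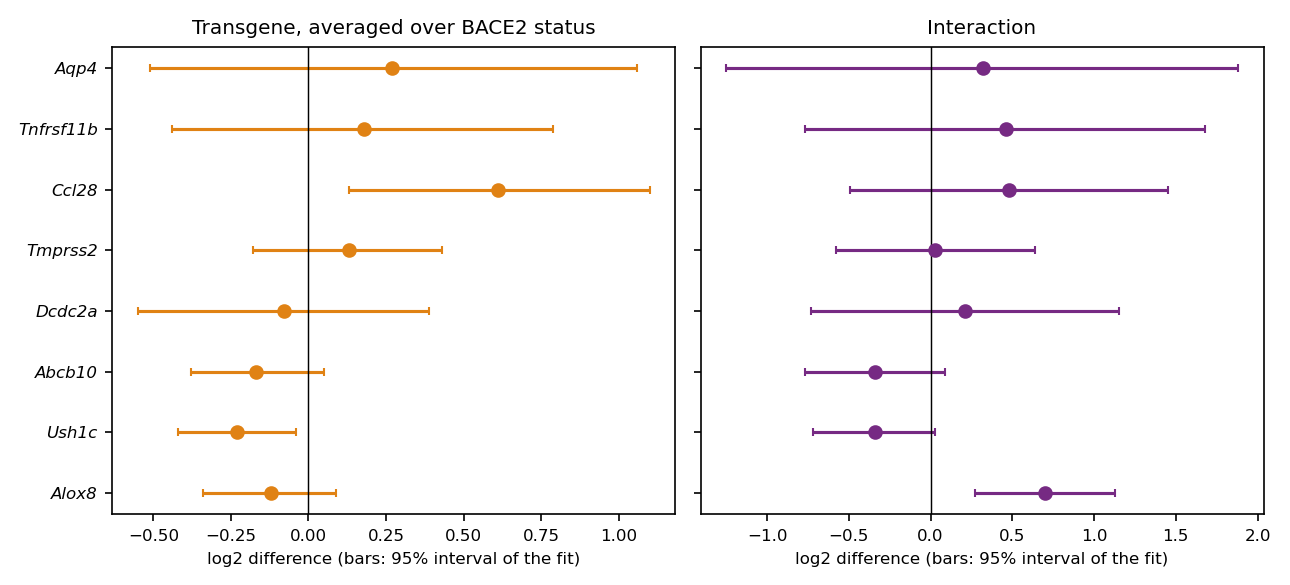
Left, difference in log2 level with the transgene, averaged over BACE2 status; right, the interaction of transgene and BACE2 loss. Points are estimates and bars 95% intervals of the fit; on the left the bars of Ccl28 and Ush1c clear 0, and on the right that of Alox8, and none passed after adjustment.

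Within genotypes the 8 genes did not vary as a block. After each genotype's mean was subtracted, the 28 pairs had Pearson correlations over the 12 arrays from -0.69 to 0.82, with a median of 0.10, and 16 were positive. Before subtraction all 28 were positive, which the choice of the genes favours. Aqp4, Ccl28 and Tmprss2 had the highest correlations, with r = 0.82 for Aqp4 and Tmprss2, 0.77 for Aqp4 and Ccl28 and 0.73 for Ccl28 and Tmprss2. Tnfrsf11b followed Ccl28 (r = 0.65) more than Aqp4 (0.41). Ush1c ran against these 4, with r between -0.69 and -0.54, and Alox8 against Abcb10 (-0.64). These values describe 12 arrays that all the genes share and carry no test. In the unadjusted levels, hIAPP replicate 1 had the highest value and BACE2-KO replicate 1 the lowest of all 12 for Aqp4, Tnfrsf11b, Ccl28 and Tmprss2. Such arrays weigh on the correlations after subtraction too. The hIAPP replicate 1 array also had the lowest beta cell marker mean of the 12, 10.42, and a link between both was not tested. In BACE2-KO replicate 1, Ccl28 and Tmprss2 stood at 6.07 and 6.17, against group means of 6.81 and 6.69. The correlations were not computed without these arrays, so they do not show that the genes varied together inside each genotype.

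**Figure D4:**
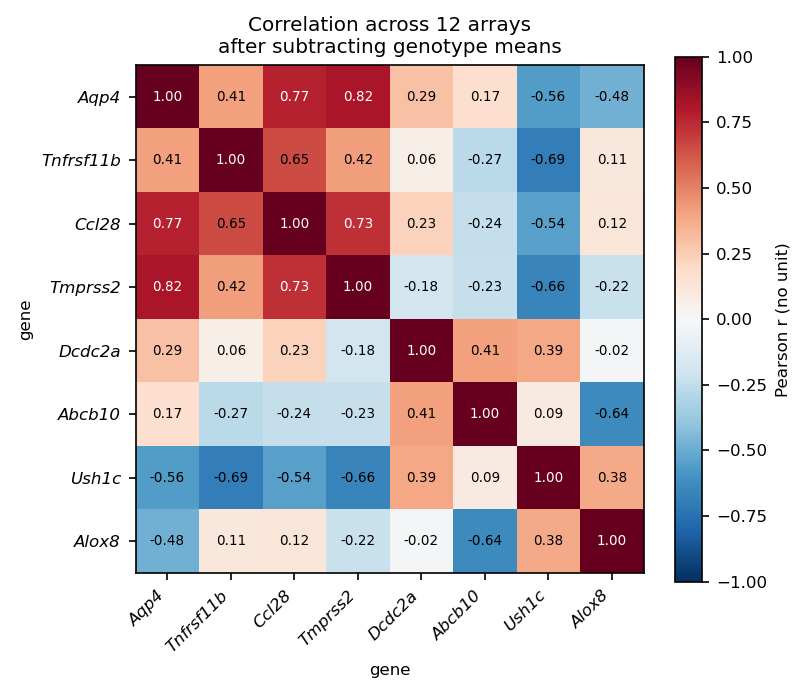
Pearson correlation between each pair of the 8 genes over the 12 arrays after subtracting genotype means; red is positive and blue negative, and each cell prints its value. The pairs among Aqp4, Ccl28 and Tmprss2 are between 0.73 and 0.82, and Ush1c is between -0.69 and -0.54 with those 3 and Tnfrsf11b.

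The genes most like each of the 8 were taken as the 3 tested genes with the highest such correlation. For Aqp4 they were Retreg1 (0.98), Fxyd6 (0.97), a regulator of the sodium pump, and Dct (0.95), an enzyme of melanin synthesis. Their averaged BACE2 differences were -0.26, -0.83 and -1.17, and none of the 3 was among the 65 called lower. For Ccl28 they were Cd24a (0.98), Csf1 (0.93), the macrophage growth factor, and Sstr2 (0.91), a somatostatin receptor. For Tmprss2 they were the sodium channel gene Scn3a (0.93), which was also among the 65 genes called lower (-0.66), Tmx1 (0.93) and Tlr5 (0.92). For the other 5 genes the 3 highest values lay between 0.90 and 0.98. The highest of so many correlations over 12 arrays are large by selection, so they only name genes of similar profile.

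The relatives and partners of the 8 genes, from lists written for this work, lay on both sides of 0. Of 79 tested, 43 were lower and 35 higher in the averaged BACE2 difference, with a median of -0.02, and 2 (2.53%) were called lower and 0 higher, against 0.92% of all genes called in either direction. Vil1, the microvillus protein villin from the list of Ush1c partners, fell by 0.46 (SE 0.09, adjusted p = 0.0359). Aqp11, an aquaporin of intracellular membranes, fell by 0.36 (SE 0.07, adjusted p = 0.0314). Both calls are near the threshold: with each array left out in turn, each of the 2 genes was called in 2 of 12 fits, with adjusted p up to 0.112 for Vil1 and 0.0797 for Aqp11. With each array left out, 0 relatives were called in 9 of the fits, 1 in that without WT replicate 3, and 2 in those without hIAPP replicate 1 or BACE2-KO replicate 3. Not all of these calls were of Vil1 or Aqp11. With the mean of a gene's probe sets 1 was called, and 0 with duct markers as a covariate.

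In the aquaporin list 7 of 11 tested genes were lower (median -0.04), Aqp11 among them. Around osteoprotegerin, 3 of 8 were lower (median 0.09). That median was between -0.05 and -0.03 without hIAPP replicate 2 or without any single BACE2-KO replicate, and -0.04 with duct markers as a covariate. Nfatc1, a transcription factor that RANKL activates in bone, differed by -0.46 (SE 0.11, adjusted p = 0.0691), and Tnfrsf11a, the RANKL receptor, by -0.21 (SE 0.12, adjusted p = 0.559). Among doublecortin and ciliary genes, 8 of 9 were higher (median 0.14), with the kinesin gene Kif3a at 0.23 (SE 0.08, adjusted p = 0.276) and Dclk1 at 0.41 (SE 0.21, adjusted p = 0.482). Of the CCL28 receptors and mucosal chemokines, 4 of 6 were lower (median -0.09, and between -0.24 and -0.19 without WT replicate 3, hIAPP replicate 1 or 2, or BACE2-KO replicate 2). There Pigr, the receptor that carries antibodies across epithelia, stood at -0.78 (SE 0.39, adjusted p = 0.479) and the receptor gene Ccr10 at -0.13 (SE 0.09, adjusted p = 0.624).

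Of the lipoxygenases and eicosanoid enzymes, 5 of 10 were lower (median 0.02, and -0.12 with duct markers as a covariate), with Alox5ap, the helper protein of another lipoxygenase, at -0.21 (SE 0.12, adjusted p = 0.554) and Alox12e at -0.23 (SE 0.14, adjusted p = 0.616). Of the mitochondrial transporters and heme enzymes, 11 of 17 were lower (median -0.02), with the related transporter gene Abcb6 at 0.36 (SE 0.09, adjusted p = 0.0976), against the direction of Abcb10, and the mitochondrial iron importer gene Slc25a37 at -0.29 (SE 0.09, adjusted p = 0.209). In the Usher and brush border list 6 of 9 were lower (median -0.09). Of the transmembrane proteases and their inhibitors, 6 of 9 were lower (median -0.02), with Tmprss4 at -0.17 (SE 0.10, adjusted p = 0.562) and Hpn, the hepsin gene, at 0.12 (SE 0.12, adjusted p = 0.79).

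**Figure D5:**
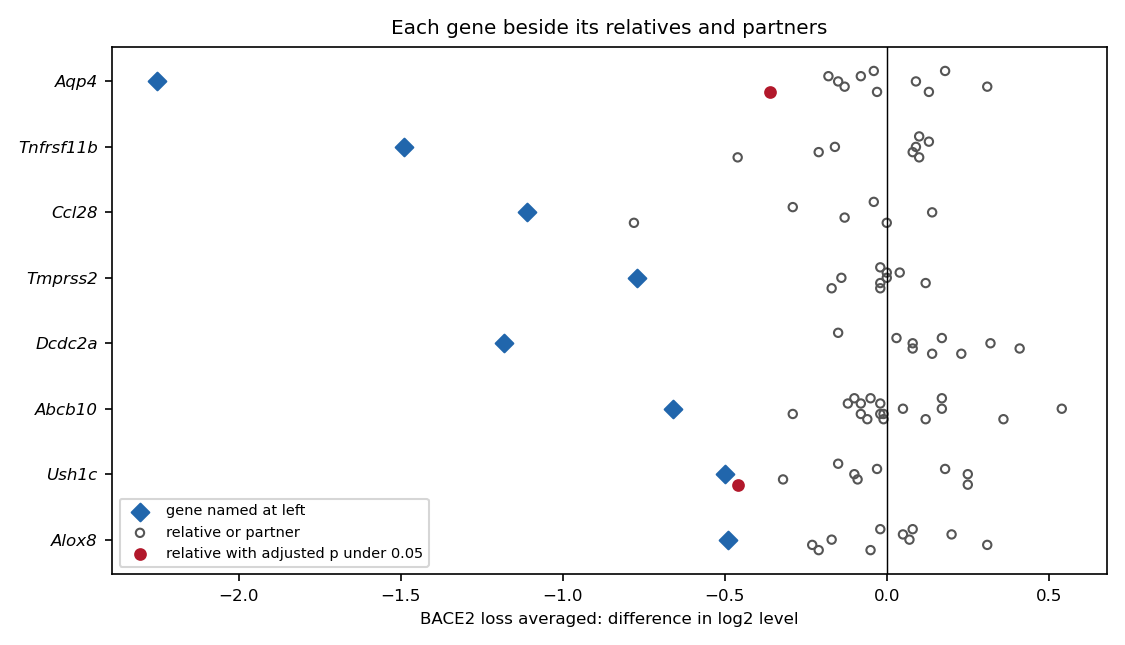
Averaged BACE2 difference in log2 level (horizontal axis) of each of the 8 genes (diamonds) and of the tested relatives and partners on its list (circles); filled circles passed the test. The relatives lie around 0 with a median of -0.02, and the filled ones are Aqp11 at -0.36 and Vil1 at -0.46.

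Markers of cell types that islet preparations can hold were read beside the 8 genes, several of which are known from epithelia. Duct markers had group ranges of their array means of 7.48 to 7.78 in WT, 7.47 to 7.85 in hIAPP, 7.54 to 7.74 in BACE2-KO and 7.73 to 8.17 in hIAPP/BACE2-KO arrays. Of the 13 tested, 6 were lower and 0 called, with Bicc1 at -0.40 (SE 0.11, adjusted p = 0.136) and Slc4a4 at 0.34 (SE 0.11, adjusted p = 0.241). Krt19, Krt7 and Prom1 are named after their values were seen. The keratin gene Krt19 differed by 1.22 (SE 0.42, adjusted p = 0.272). Another keratin gene, Krt7, differed by -0.02 (SE 0.06) and Prom1 by -0.11 (SE 0.07), with mean levels of 11.42 and 11.12 in these islets. With the duct marker mean as a covariate the averaged differences of the 8 genes were between -2.22 (Aqp4) and -0.50 (Ush1c). With the acinar mean they were between -2.26 and -0.49.

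Of the other lists, only the delta, gamma and epsilon cell markers had a called member. Ghrl, the ghrelin gene of epsilon cells, fell by 2.16 (SE 0.26, adjusted p = 0.00208). Its mean was 5.72 in WT and 5.03 in hIAPP arrays, but only 3.12 (BACE2-KO) and 3.31 (hIAPP/BACE2-KO) without BACE2. Both are under the filter level, so no exact size is read from the Ghrl difference. The array means of that list ran from 9.30 to 9.71 in WT, 9.16 to 9.39 in hIAPP, 8.73 to 9.14 in BACE2-KO and 8.82 to 9.04 in hIAPP/BACE2-KO arrays, but the list's median difference was only -0.07, and its 5 other genes (Ppy, Pyy, Hhex, Ghsr and Sst) lay between -0.10 and 0.00. After genotype means were subtracted, that list's mean had r = 0.72 with Aqp4 over the 12 arrays, 0.57 with Dcdc2a, 0.41 with Ccl28, 0.32 with Abcb10, 0.28 with Tmprss2, 0.02 with Tnfrsf11b, -0.08 with Ush1c and -0.54 with Alox8. Over all 8 genes and 10 marker lists these correlations ran from -0.63 (Tnfrsf11b with beta cell markers) to 0.82 (Alox8 with stellate and fibroblast markers), with 0.77 for Alox8 and 0.63 for Tnfrsf11b with duct markers and 0.70 for Ush1c with endothelial markers. The part of any cell type in the difference of the 8 genes was not tested. The duct and acinar covariates gave refitted values only, since the genes were chosen for lower levels without BACE2. The duct mean also holds genes that are bright in these islets, such as Krt7 and Prom1. Alpha cell markers had 5 of 5 higher (median 0.32, none called), with Irx2 at 0.48 (SE 0.15, adjusted p = 0.221) and Irx1 at 0.68 (SE 0.23, adjusted p = 0.26). Their array means ran from 8.66 to 9.10 in WT, 8.69 to 9.12 in hIAPP, 8.74 to 9.57 in BACE2-KO and 9.04 to 9.45 in hIAPP/BACE2-KO arrays. Beta cell markers had 4 of 9 lower, macrophage markers 8 of 12, lymphocyte markers 4 of 4, stellate and fibroblast markers 2 of 9, endothelial markers 8 of 10, acinar markers 9 of 13, and Schwann and glial markers 3 of 3, with 0 called in each.

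By position in RefSeq on GRCm38.p6, the 8 genes lie on 7 chromosomes, and Tmprss2 shares chromosome 16 with Bace2. The only tested genes between them were Mx1 and Mx2, at 0.34 (SE 0.15, adjusted p = 0.408) and 0.28 (SE 0.14, adjusted p = 0.489) in the averaged BACE2 difference. On the other side of Bace2, Pcp4, a calmodulin-binding protein gene, stood at 1.06 (SE 0.42, adjusted p = 0.348), Dscam at 0.11 and Itgb2l at 0.00. On the far side of Tmprss2, Ripk4 stood at -0.05, Prdm15 at 0.28 and C2cd2 at 0.02. Bace2 itself differed by -0.15 (SE 0.07, adjusted p = 0.441), and by -0.22 and -0.02 on its other probe sets. The position of its probes relative to the deletion is unknown here, so its level does not check the genotype. Around the 8 genes together, 3 tested neighbours on each side of each, 48 in all, held 20 lower values and 0 calls. Bace2, as a neighbour of Tmprss2, is counted in the 48 and in the 20.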

How the data were processed

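The authors deposited log2 expression values, 1 per probe set and array, which the submitters' processing notes ascribe to RMA and affy, without versions or a genome build. Arrays hold no read depth, and their number limits the precision. Array medians ran from 4.22 to 4.35. Of 45141 probe sets, 28898 had 1 symbol in the platform annotation and the rest were left unnamed. Each gene was its probe set with the highest mean. Genes under the 25th percentile (3.43) were left out. limma 3.58.1 in R 4.3.3 fitted a mean per genotype to all 12 arrays, with a variance trend. Calls were two-sided, at a p under 0.05 after Benjamini-Hochberg adjustment over the 12825 genes. The steps were tested on simulated data. The 8 genes and all lists were chosen with earlier results of these data known. Genes named besides the 8 follow a rule: called list members (or the 2 with the smallest p), the 3 nearest tested genes on each side, and the 3 most correlated. Not every gene this rule names is printed; those named outside it are marked. Start regions and neighbours came from RefSeq tables. Alternatives were filters, probe set choice, scaling, variance model, array weights, replicate block, marker covariates, arrays fitted and single arrays left out. Figures used matplotlib 3.10.9.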

Additional observations from a re-analysis of the deposited data

How the results depend on the processing

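None of the 8 genes was called for the transgene or the interaction under any of the alternatives run, and the averaged BACE2 difference of each of the 8 stayed under 0. The genes were chosen for lower values in these same arrays, so that sign is no independent check. With the mean of probe sets the averaged BACE2 difference was -1.46 for Aqp4, -0.39 for Ccl28 and -0.48 for Tmprss2. Tnfrsf11b and Alox8 gave no value with the 50th percentile filter, which leaves them out. The count of genes called for BACE2 loss averaged was 118, with 46 to 108 when 1 array was left out (46 without WT replicate 1 or 2, 63 without hIAPP replicate 2 or 3, 75 without hIAPP/BACE2-KO replicate 3). For BACE2-KO minus WT it was 16, with 5 to 16 when 1 array was left out (5 to 9 without any single BACE2-KO replicate, WT replicate 1 or 2 or hIAPP replicate 2 or 3, and 10 without hIAPP/BACE2-KO replicate 3), 6 with the 50th percentile filter, 36 with array weights and 9 with only the groups compared. For hIAPP/BACE2-KO minus hIAPP it was 13, with 4 to 17 when 1 array was left out (4 to 8 without any single hIAPP/BACE2-KO replicate or hIAPP replicate 2 or 3), 24 with median centring, 6 with the duct covariate and 3 with only the groups compared. Relatives called were 2, with 0 to 2 when 1 array was left out, 1 with the mean of probe sets and 0 with the duct covariate. The labels do not say that replicate numbers mark a shared source, so the numbers were not used as pairing. The deviations of same-numbered arrays correlated over 0.1 in 5 of 6 pairs for number 1, 1 of 6 for number 2 and 4 of 6 for number 3. These correlations ran from -0.13 to 0.37. The best correlation was with the own number for 4 of 4 arrays numbered 1, 1 of 4 numbered 2 and 3 of 4 numbered 3. Arrays numbered 1 and 3 thus shared deviations that the main fit leaves out. As a block the number gave 205 genes called for BACE2 loss averaged and 29 for hIAPP/BACE2-KO minus hIAPP.

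Of the values that missed the threshold, 16 turned sign, 12 of them when 1 array was left out. With 1 array left out the transgene difference ran from -0.09 to 0.49 for Aqp4, -0.11 to 0.40 for Tnfrsf11b, -0.21 to 0.11 for Dcdc2a and 0.00 to 0.20 for Tmprss2. The interaction ran from -0.42 to 0.74 for Aqp4, -0.16 to 0.48 for Dcdc2a and -0.23 to 0.17 for Tmprss2. The transgene difference was -0.07 for Tnfrsf11b with the duct covariate and 0.07 for Dcdc2a with array weights, and the Tmprss2 interaction was -0.01 with median centring and 0.00 with the acinar covariate. The cause was not tested. How well levels near 3.43 are resolved was not tested, which limits Tnfrsf11b and Alox8.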
